A study of Mus musculus with 20 samples.

Results

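The proteasome genes examined here were the protein-coding mouse genes whose symbol begins with Psma, Psmb, Psmc, Psmd, Psme, Psmf or Psmg followed by a digit. The rule found 50 genes among the 21519 protein-coding genes in the count files, which list 45706 genes in all, and 4 pseudogenes with a matching symbol were left out. By role they comprised 8 alpha and 7 constitutive beta subunits of the 20S core and 4 further beta subunits. These 4 were the inducible Psmb8, Psmb9 and Psmb10 and the thymus-specific Psmb11. There were also 6 ATPase and 11 non-ATPase subunits of the 19S cap, 6 activators and inhibitors and 7 assembly chaperones. The remaining member, Psmc3ip, matches by symbol only: it encodes an interactor of the ATPase Psmc3 with a role in meiotic recombination and no proteasome component. In each material 48 members had enough counts to be tested. The other two, Psma8, the testis-specific alpha subunit, and Psmb11, the thymus-specific beta subunit, stayed at or below 0.386 CPM, counts scaled to a common library size, in every sample.

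Cathepsin D (Ctsd) is an aspartic protease of the lysosome. The samples ask whether the RNA of the other large protein-degrading system of the cell changes when this protease is missing. All mice carried the MMTV-PyMT transgene, in which the mouse mammary tumor virus promoter drives the polyoma middle T oncogene in mammary epithelium, on a C57BL/6N background. Breast tumors of 18-week-old mice were either control (4 tumors, titled WT) or MMTV-cre;Ctsd-/- (4 tumors). In the latter, Cre removes Ctsd in mammary epithelium while stroma, vessels and leukocytes keep the gene. The paper's controls are CTSD-competent mice with untargeted Ctsd alleles, alleles flanked by loxP sites, or both. It lists the controls without Cre, so Cre and the loss of Ctsd cannot be told apart in tumors. Spontaneously immortalized tumor cells came from a single Ctsd+/+ and a single MMTV-cre;Ctsd-/- PyMT mouse and grew in medium with 1% fetal calf serum (FCS), a mild starvation, for 10 days (1% FCS) or for 12 weeks (1% FCS long-term, 1% FCS LT). Each of these 4 cell groups held 3 replicates. With 1 line per genotype, a p-value in the cells measures the spread between cultures of a line, and the genotype and the line cannot be told apart.

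The 26S proteasome degrades proteins tagged with ubiquitin. Its 20S core is a barrel of alpha rings, which control entry, around beta rings, in which Psmb5, Psmb6 and Psmb7 encode the proteolytic sites. Interferon replaces these with the inducible subunits Psmb8, Psmb9 and Psmb10, which form the immunoproteasome and favour the production of peptides for MHC class I. The 19S cap binds ubiquitin, removes it and unfolds the substrate with its ring of ATPases, while Psme1 and Psme2 form the interferon-inducible 11S activator PA28. When the proteasome is inhibited, the transcription factor NRF1 (gene Nfe2l1) raises most subunit genes together through antioxidant response elements in their promoters.

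The 8 tumor libraries held 49725437 to 64291587 counts at genes and the 12 cell libraries 33622831 to 40239762. Ctsd, the check of the labels, stood at 1781 to 2617 CPM in control and 360 to 1295 CPM in Ctsd-/- tumors, and at 1267 to 4199 CPM in Ctsd+/+ and 114 to 192 CPM in Ctsd-/- cells. Reads that overlapped more than 1 gene, which are not counted for any gene, made up 12.4% and 15.6% of the reads of control tumors 3 and 4, 7.11% to 9.75% in the other 6 tumors and 1.11% to 1.25% in the cells. In the Ctsd+/+ cells in 1% FCS the 7 mammary epithelial markers summed to 915 to 1724 CPM, against 4302 to 10120 CPM in the other cell groups. Of the 7, 6 were higher in Ctsd-/- than in Ctsd+/+ cells in 1% FCS. The other, Krt14, was lower (log2 fold change -2.50). Epcam and Cdh1 still held 4285 to 5597 and 7803 to 10082 counts in these 3 Ctsd+/+ cultures. In the same 3 cultures Col1a1 reached 531 to 2320 CPM, against 0.533 to 5.96 CPM elsewhere in the cells, while the fibroblast transcripts Col1a2 and Dcn stayed at or below 3.69 CPM. Pdgfra, another fibroblast marker, stood at 74.3, 28.1 and 10.9 CPM in them and at 1.84 to 10.6 CPM in the other 9 cell samples, and all 3 fibroblast markers with enough counts to be tested (Col1a1, Col1a2 and Pdgfra) were lower in Ctsd-/- than in Ctsd+/+ cells in 1% FCS. Every comparison below that uses these cultures carries that difference, whose part in the results was not tested. The cell samples carry 3 run codes: replicate 1 of both genotypes in 1% FCS shared a run, replicate 3 of both genotypes in 1% FCS LT shared another, and the remaining 8 samples were in the last, which holds both times. Genotypes were therefore balanced over the runs, while culture times were not.

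Levels of the subunits were compared with each other as CPM per kb of exon. Among the 31 constitutive 26S subunits measured in control tumors, the group mean ran from 15.3 CPM per kb for Psmd3, a scaffold subunit of the 19S lid, to 433 ± 197 (SD, n = 4) CPM per kb for Psmb6. In Ctsd-/- tumors the same pair marked the ends, at 18.6 and 266 CPM per kb. In cells the range was narrower, 7.58-fold in Ctsd-/- cells in 1% FCS, and its lower end was Psmd11 in each of the 4 groups. Its upper end was Psmd2, a base subunit of the 19S cap, in 3 of these groups and the ATPase Psmc5 in Ctsd+/+ cells in 1% FCS. Libraries of tumors and cells were made differently, so levels were not tested between them.

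Promoters are shown for members on which the results below turn, as the 250 bases before the RefSeq transcription start (GRCm38.p6), 5′ to 3′ along the gene. RefSeq windows of 300 bases, 250 before and 50 after the start, were at hand for 42 of the 50 members. They were searched on both strands for 8 motifs chosen after the expression values were known. In the sequences, capitals mark matches to TGACNNNGC (antioxidant response element core), the interferon-stimulated response element core, TTCNNNGAA (gamma-activated site), the CCAAT box, the ETS core (CCGGAAG) or the E-box (CACGTG), on either strand. The first 4 belong to genes that were lower in Ctsd-/- cells at both culture times, and are shown because each holds the antioxidant response element core. Of the 7 such genes with a window these 4 hold it, and Psme1, Psme2 and Psme2b do not. Of the 3 genes higher at both times 0 hold it. For the interferon-stimulated response element core the counts were 2 of the 7 and 0 of the 3. They were 2 and 2 for the ETS core and 1 and 0 for the E-box. The CCAAT box and the gamma-activated site each gave 0 and 1. Both sets of genes come from calls in these same data, so these counts are a description and no test.
Psmb5, chr14:54617996-54618245, - strand: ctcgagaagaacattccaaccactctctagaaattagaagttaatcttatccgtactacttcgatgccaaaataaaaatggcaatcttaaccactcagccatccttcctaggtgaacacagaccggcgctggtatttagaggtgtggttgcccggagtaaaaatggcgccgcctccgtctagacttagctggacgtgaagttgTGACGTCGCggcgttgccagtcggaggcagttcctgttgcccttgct
Psmc6, chr14:45329574-45329823, + strand: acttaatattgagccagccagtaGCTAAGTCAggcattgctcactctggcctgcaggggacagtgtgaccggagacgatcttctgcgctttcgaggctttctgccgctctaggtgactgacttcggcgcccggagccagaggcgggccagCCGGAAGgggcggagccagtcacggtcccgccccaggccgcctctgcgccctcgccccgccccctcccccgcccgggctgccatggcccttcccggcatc
Psmd9, chr5:123227940-123228189, + strand: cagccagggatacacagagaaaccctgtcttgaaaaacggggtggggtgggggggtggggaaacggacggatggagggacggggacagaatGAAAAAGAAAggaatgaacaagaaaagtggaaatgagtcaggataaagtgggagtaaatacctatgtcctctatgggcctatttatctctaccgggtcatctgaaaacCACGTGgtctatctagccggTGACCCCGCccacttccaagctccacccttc
Psmd12, chr11:107479278-107479527, + strand: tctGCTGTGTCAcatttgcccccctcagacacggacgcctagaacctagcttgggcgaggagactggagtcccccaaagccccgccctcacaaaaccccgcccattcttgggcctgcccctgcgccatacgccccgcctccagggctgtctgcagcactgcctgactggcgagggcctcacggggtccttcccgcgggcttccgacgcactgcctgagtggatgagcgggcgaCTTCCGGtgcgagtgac
The next 3 belong to the inducible subunits.
Psmb8, chr17:34197945-34198194, + strand: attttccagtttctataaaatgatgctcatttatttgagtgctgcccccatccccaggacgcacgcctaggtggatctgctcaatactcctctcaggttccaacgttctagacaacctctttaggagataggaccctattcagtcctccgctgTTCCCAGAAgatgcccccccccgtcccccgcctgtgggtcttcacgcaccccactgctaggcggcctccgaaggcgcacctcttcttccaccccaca
Psmb9, chr17:34187331-34187580, - strand: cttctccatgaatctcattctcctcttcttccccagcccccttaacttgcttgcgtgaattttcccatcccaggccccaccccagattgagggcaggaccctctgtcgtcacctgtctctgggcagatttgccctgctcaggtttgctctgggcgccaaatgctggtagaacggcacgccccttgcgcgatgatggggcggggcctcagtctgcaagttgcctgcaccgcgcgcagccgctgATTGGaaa
Psmb10, chr8:105938393-105938642, - strand: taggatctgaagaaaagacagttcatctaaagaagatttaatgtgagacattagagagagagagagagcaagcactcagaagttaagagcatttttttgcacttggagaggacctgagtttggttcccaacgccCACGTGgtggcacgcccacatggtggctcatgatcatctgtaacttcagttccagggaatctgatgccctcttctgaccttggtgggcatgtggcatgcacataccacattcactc
The window of Psmb9 shares 275 of its 300 bases with that of Tap1, the peptide transporter gene read in the opposite direction. For Psmb8, Psmb9 and Psmd9 the GENCODE gene begins upstream of all the bases printed, so these lie inside the longer gene model. For Psmb5, Psmb10, Psmc6 and Psmd12 it begins within the printed bases, so those nearest the RefSeq start lie inside it. TGACNNNGC occurred in 6 of 42 members (14.3%) and in 12.4% of all 32851 windows, and 4 of the 6 are printed above. The others were Psmb6, which passed between the genotypes at neither culture time, and Psme4, which was higher in Ctsd-/- cells at 12 weeks. CCGGAAG occurred in 15 of 42 members (35.7%) and 8.86% of all windows, CCAAT in 15 of 42 (35.7%) and 37.4%, the interferon-stimulated response element core in 5 of 42 (11.9%) and 3.44%, CACGTG in 4 of 42 (9.52%) and 7.15%, and TTCNNNGAA in 3 of 42 (7.14%) and 8.3%. TGACGTCA (cyclic AMP response element) and the NF-kB site had 0 matches in members, against 1.79% and 1.63% of all windows. A match is a run of letters and no evidence of binding.

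In tumors, proteasome RNA was lower on average in the Ctsd-/- group, and most members were highest in control tumor 4. The summed level of the 31 constitutive 26S subunits was 7984, 7391, 9673 and 15270 CPM in control tumors 1 to 4 and 9088, 8066, 6966 and 7413 CPM in Ctsd-/- tumors 1 to 4. Control tumors 3 and 4 held the highest sums, and the other 6 tumors overlapped. Of the 48 members tested, 41 had a log2 fold change below 0, with a median of -0.25 (all genes 0.00). At the study's threshold for tumors, an unadjusted p under 0.1, 5 members were lower and 0 higher, when 8.27% of the 18617 genes tested were lower and 8.44% higher (16.7% in either direction). With Benjamini-Hochberg adjustment (edgeR quasi-likelihood test) 0 members passed 0.05, against 1 gene (0.00537%) of all. At an unadjusted p under 0.05, 2 members were lower, when 8.94% of all genes passed in either direction.

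**Figure D1:**
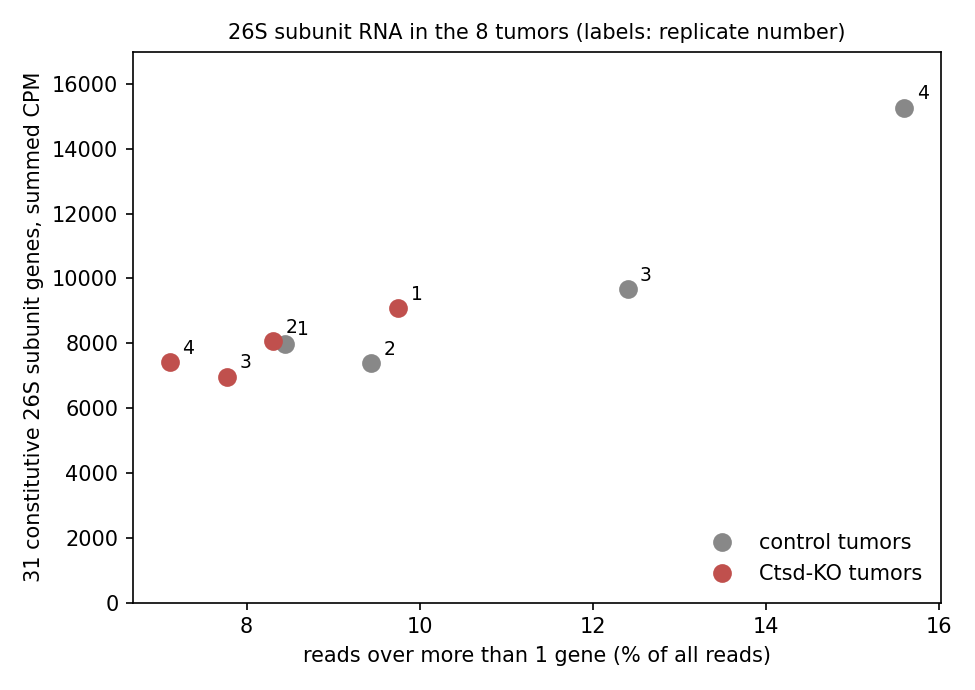
Summed CPM of the 31 constitutive 26S subunit genes (vertical axis) against the share of reads that overlapped more than 1 gene (horizontal axis, percent of all reads) in each of the 8 tumors, with replicate numbers beside the points. Control tumors 3 and 4 lie to the right at 12.4% and 15.6% and hold the highest sums, 9673 and 15270 CPM, while the other 6 tumors lie between 6966 and 9088 CPM.

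The 5 members were the alpha subunit Psma6, the caspase-like site Psmb6, the lid subunit Psmd13 and the assembly factors Psmd10 and Psmg4. Psmb6 stood at 652, 532, 704 and 1352 CPM in control and 542, 592, 404 and 455 CPM in Ctsd-/- tumors, a log2 fold change of -0.70 ± 0.31 (SE, adjusted p = 0.555, edgeR). Its groups overlapped through the second control and the first 2 Ctsd-/- tumors. Psmd13 was the single member without overlap, at 204, 206, 237 and 393 CPM in control and 175, 204, 172 and 187 CPM in Ctsd-/- tumors (log2 fold change -0.50 ± 0.24, adjusted p = 0.576, edgeR), when 1.89% of all genes were lower and 2.26% higher without overlap. The gap between its groups was that between 203.7 and 204.2 CPM, and 10.1% of its exon bases are shared with Sirt3 on the other strand, which these libraries, made without strand, cannot separate. Psma6, Psmd10 and Psmg4 had log2 fold changes of -0.72, -0.75 and -0.80.

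Control tumor 4 was the highest control for 41 of the 48 members, and in 25 members both control tumors 3 and 4 exceeded both others. Leaving out 1 tumor moved the count of lower members from 5 to 0 without control tumor 4 or Ctsd-/- tumor 3, to 2 without Ctsd-/- tumor 4, to 3 without control tumor 3, and to 12, 16 and 15 without control tumor 1, control tumor 2 and Ctsd-/- tumor 1. The median log2 fold change lay between -0.36 and -0.03 in these fits, the last without control tumor 4. In a fit without control tumors 3 and 4, chosen after the data were seen, 0 members passed in the lower direction, 16 of 49 tested were below 0 and the median was 0.05. With the share of reads over several genes as a covariate, also chosen after the data were seen, 14 of 48 were below 0, and the counts past the threshold were 0 lower and 1 higher. Control and Ctsd-/- tumors carry different run codes, so run and genotype cannot be told apart.

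Apart from Psmb6, the catalytic subunits and their inducible counterparts did not pass in tumors. Psmb5, the chymotrypsin-like site, stood at 93.2, 80.0, 118 and 210 CPM in control and 107, 111, 90.5 and 113 CPM in Ctsd-/- tumors (log2 fold change -0.25 ± 0.29). Psmb7, the trypsin-like site, gave -0.21 ± 0.25. Their inducible counterparts overlapped as widely: Psmb8 ranged from 63.0 to 172 CPM in control and from 66.1 to 160 CPM in Ctsd-/- tumors (-0.09 ± 0.35), Psmb9 gave -0.14 ± 0.34 and Psmb10 -0.20 ± 0.21. The ratio of Psmb8 to Psmb5 per kb was 0.237 ± 0.0467 in control and 0.260 ± 0.102 in Ctsd-/- tumors (SD, n = 4). Psme1 and Psme2, the PA28 pair, had log2 fold changes of -0.33 ± 0.22 and -0.55 ± 0.33. All of these signs, apart from Psme1 and Psmb10, turned without control tumors 3 and 4, and that of Psmb6 did not.

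Other genes of MHC class I presentation, most of them interferon-responsive like the inducible subunits, were higher in the same Ctsd-/- tumors. Of 10 listed genes tested, 7 passed as higher (among them H2-D1, Nlrc5, Tap1 and Tap2) and 0 as lower, when 8.44% of all genes were higher and 8.27% lower, with a list median of 0.66 against 0.00 for all genes. H2-D1, a class I heavy chain, stood at 1381 to 2329 CPM in control and 2710 to 4105 CPM in Ctsd-/- tumors (log2 fold change 0.85 ± 0.26, adjusted p = 0.464, edgeR). In the fit that included the adipocyte markers H2-D1 was at 0.626 and did not pass. Nlrc5, the class I transactivator, rose without overlap from 6.37 to 9.23 CPM in control to 10.1 to 22.5 CPM in Ctsd-/- tumors (1.01 ± 0.29). None of these passed with adjustment. Tap1, whose promoter window Psmb9 shares, was at 0.62 ± 0.26 while Psmb9 was at -0.14, and the difference between the 2 genes was not tested. The leukocyte markers, most of whose cells express these genes, summed to 481 to 1235 CPM in control and 572 to 1227 CPM in Ctsd-/- tumors, with 1 of 11 higher (Cd79a) and 0 lower. The 5 adipocyte markers were all higher, at sums of 209 to 2151 and 1045 to 10740 CPM, as were 3 of 4 endothelial markers, and their part in the member differences was not tested beyond the fits that took adipocyte or leukocyte markers as a covariate. In bulk tissue, fewer cells of a type and less RNA per cell cannot be told apart.

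In the cells, 8 proteasome genes were lower and 3 higher in Ctsd-/- than in Ctsd+/+ cultures at both culture times. The 8 include both Psme2 and its retrogene copy Psme2b, whose changes are not separate. They also include Psmb5 and Psmc6, whose calls at 1 of the times depended on single libraries, as given below. At 10 days, 7 members were higher and 11 lower of 48 (adjusted p under 0.05, edgeR), when 23.5% of the 15178 genes tested were higher and 25.1% lower, and the median log2 fold change was -0.04 (all genes 0.00). The count of higher members was 2 without Ctsd+/+ replicate 1 or without Ctsd-/- replicate 2 of that time, 3 without Ctsd-/- replicate 3, 10 without Ctsd-/- replicate 1, and 5 or 6 without any other library. At 12 weeks, 11 members were higher and 10 lower, when 20.5% of all genes were higher and 19.1% lower, with a median of 0.20 (all genes 0.01). The 11 include Psmc3ip (1.05 ± 0.26), which is no proteasome gene. With sequencing run as a covariate the counts were 9 higher and 15 lower at 10 days and 18 higher and 11 lower at 12 weeks, and within the run that holds both times they were 6 and 13, and 15 and 8. In all 18 of 48 members (37.5%) were called at 10 days, below the 48.5% of all genes, and 21 of 48 (43.8%) at 12 weeks, against 39.6% of all genes. Samples of the genotypes did not overlap for 13 lower and 5 higher members at 10 days (27.6% of all genes in each direction) and for 12 lower and 22 higher members at 12 weeks (26.4% and 27.9% of all genes). The comparisons use different cultures of the same lines. Of the 11 members lower at 10 days 8 (72.7%) were lower at 12 weeks, which is 80% of the 10 members lower there. Over all genes tested the shares were 40.3% of those lower at 10 days and 53% of those lower at 12 weeks. Of the 7 members higher at 10 days 3 (42.9%) were higher at 12 weeks (27.3% of 11), when the shares over all genes were 38.8% and 44.5%, and 0 members passed in opposite directions, when 5.11% of all genes did.

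**Figure D2:**
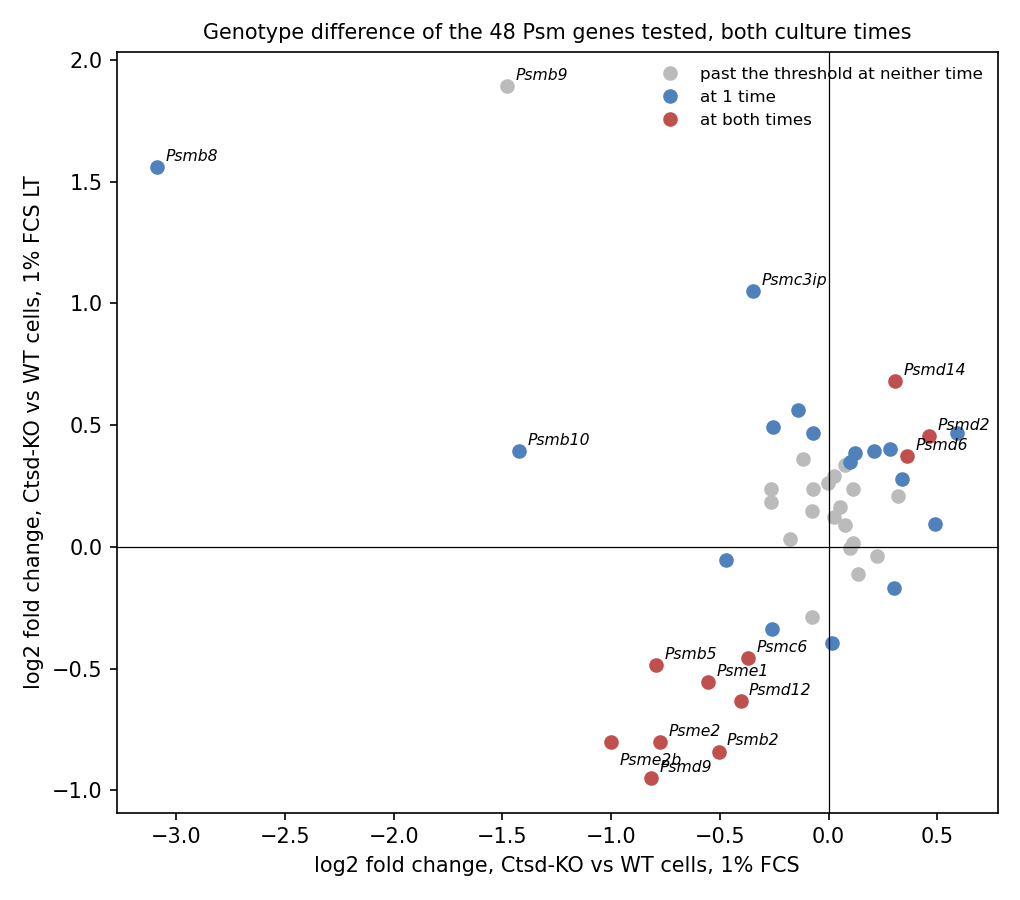
Log2 fold change of Ctsd-/- over Ctsd+/+ cells in 1% FCS (horizontal axis) and in 1% FCS LT (vertical axis) for each of the 48 members tested, coloured by whether it passed an adjusted p of 0.05 at both times, at 1 time or at neither. The 8 members at the lower left and the 3 at the upper right passed at both times, and Psmb8, at -3.09 and 1.56, lies far from the rest.

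Both PA28 genes were lower at both times. Psme1 stood at 50.9, 60.0 and 52.6 CPM in Ctsd+/+ and 39.4, 35.2 and 36.8 CPM in Ctsd-/- cells at 10 days, a log2 fold change of -0.55 ± 0.12 (adjusted p = 0.0021). At 12 weeks it stood at 45.8, 52.2 and 58.7 against 39.0, 34.8 and 32.8 CPM (-0.56 ± 0.12, adjusted p = 0.00262). Psme2 fell from 56.0, 65.1 and 50.4 CPM to 34.5, 30.8 and 34.9 CPM at 10 days (-0.77 ± 0.11, adjusted p = 0.00017) and from 49.3, 56.4 and 52.2 CPM to 31.8, 30.7 and 28.0 CPM at 12 weeks (-0.80 ± 0.11, adjusted p = 0.000188). No sample of either genotype entered the range of the other for these 2 genes. Psme2b, a retrogene copy of Psme2 on chromosome 11, followed at -0.999 and -0.80. It held 13.5% to 19% of the counts of the pair in every sample, and reads of near-identical copies can be split between them, so its change is not separate from that of Psme2. Psme3, the nuclear activator PA28 gamma, gave -0.18 ± 0.11 and 0.03 ± 0.11 and did not pass at either time. Psme4, another activator, went the other way at 12 weeks: it was at -0.26 at 10 days, where it did not pass, and higher by 0.49 at 12 weeks, where it passed.

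The constitutive core held 2 members of the set. Psmb2, a non-catalytic beta subunit, stood at 87.9, 105 and 107 CPM in Ctsd+/+ and 59.6, 76.4 and 74.8 CPM in Ctsd-/- cells at 10 days (-0.51 ± 0.12, adjusted p = 0.00347), and at 119, 126 and 112 against 62.5, 68.8 and 67.4 CPM at 12 weeks (-0.84 ± 0.12, adjusted p = 0.000156). Psmb5 stood at 51.7, 71.3 and 68.8 against 29.2, 40.4 and 41.3 CPM at 10 days (-0.79 ± 0.15, adjusted p = 0.000996), and at 53.5, 48.5 and 49.1 against 36.6, 35.0 and 36.3 CPM at 12 weeks (-0.49 ± 0.15, adjusted p = 0.0211). Both separated the genotypes without overlap at both times, although 12.1% of the exon bases of Psmb5 lie under the microRNA gene Mir686 on the same strand. The other catalytic subunits did not follow. Psmb6 gave 0.05 ± 0.13 and 0.17 ± 0.13, and Psmb7 gave -0.14 ± 0.10 at 10 days and rose by 0.56 ± 0.10 at 12 weeks (adjusted p = 0.000804), at 72.8, 76.3 and 80.2 CPM in Ctsd+/+ and 112, 114 and 113 CPM in Ctsd-/- cells.

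Among the 7 alpha subunits tested, which form the gate of the core, 0 were lower at either time, when 25.1% and 19.1% of all genes were. Psma1 was higher at 10 days (0.49 ± 0.12, adjusted p = 0.00583), and Psma3 and Psma7 were higher at 12 weeks (0.39 ± 0.12 and 0.35 ± 0.12).

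The assembly chaperone Psmd9, which escorts the ATPases Psmc3 and Psmc6 into the 19S base, had the largest fall at 12 weeks. It stood at 30.4, 32.8 and 32.8 CPM in Ctsd+/+ and 15.2, 21.7 and 17.7 CPM in Ctsd-/- cells at 10 days (-0.81 ± 0.13, adjusted p = 0.000269), and at 44.3, 45.3 and 40.2 against 22.5, 21.4 and 23.2 CPM at 12 weeks (-0.95 ± 0.13, adjusted p = 0.000127). Of its ATPase partners Psmc6 was lower too, at 101, 120 and 128 against 78.9, 99.6 and 92.2 CPM at 10 days (-0.37 ± 0.12, adjusted p = 0.0204) and 109, 109 and 114 against 72.2, 83.9 and 85.6 CPM at 12 weeks (-0.46 ± 0.12, adjusted p = 0.00867). The other partner, Psmc3, was not: it was at -0.07 at 10 days and higher at 12 weeks (0.47 ± 0.11, adjusted p = 0.0048, edgeR). Psmd12, a lid subunit, stood at 166, 196 and 192 against 119, 157 and 142 CPM at 10 days (-0.40 ± 0.11) and 215, 226 and 209 against 127, 144 and 148 CPM at 12 weeks (-0.63 ± 0.12, adjusted p = 0.00105). The chaperone Psmd5 was lower at 10 days (-0.47 ± 0.14) and at -0.05 ± 0.14 at 12 weeks, while Psmd10 was lower at 12 weeks (-0.39 ± 0.11) and at 0.01 ± 0.11 at 10 days. The core assembly factors Psmg1 to Psmg4 did not pass at either time.

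**Figure D3:**
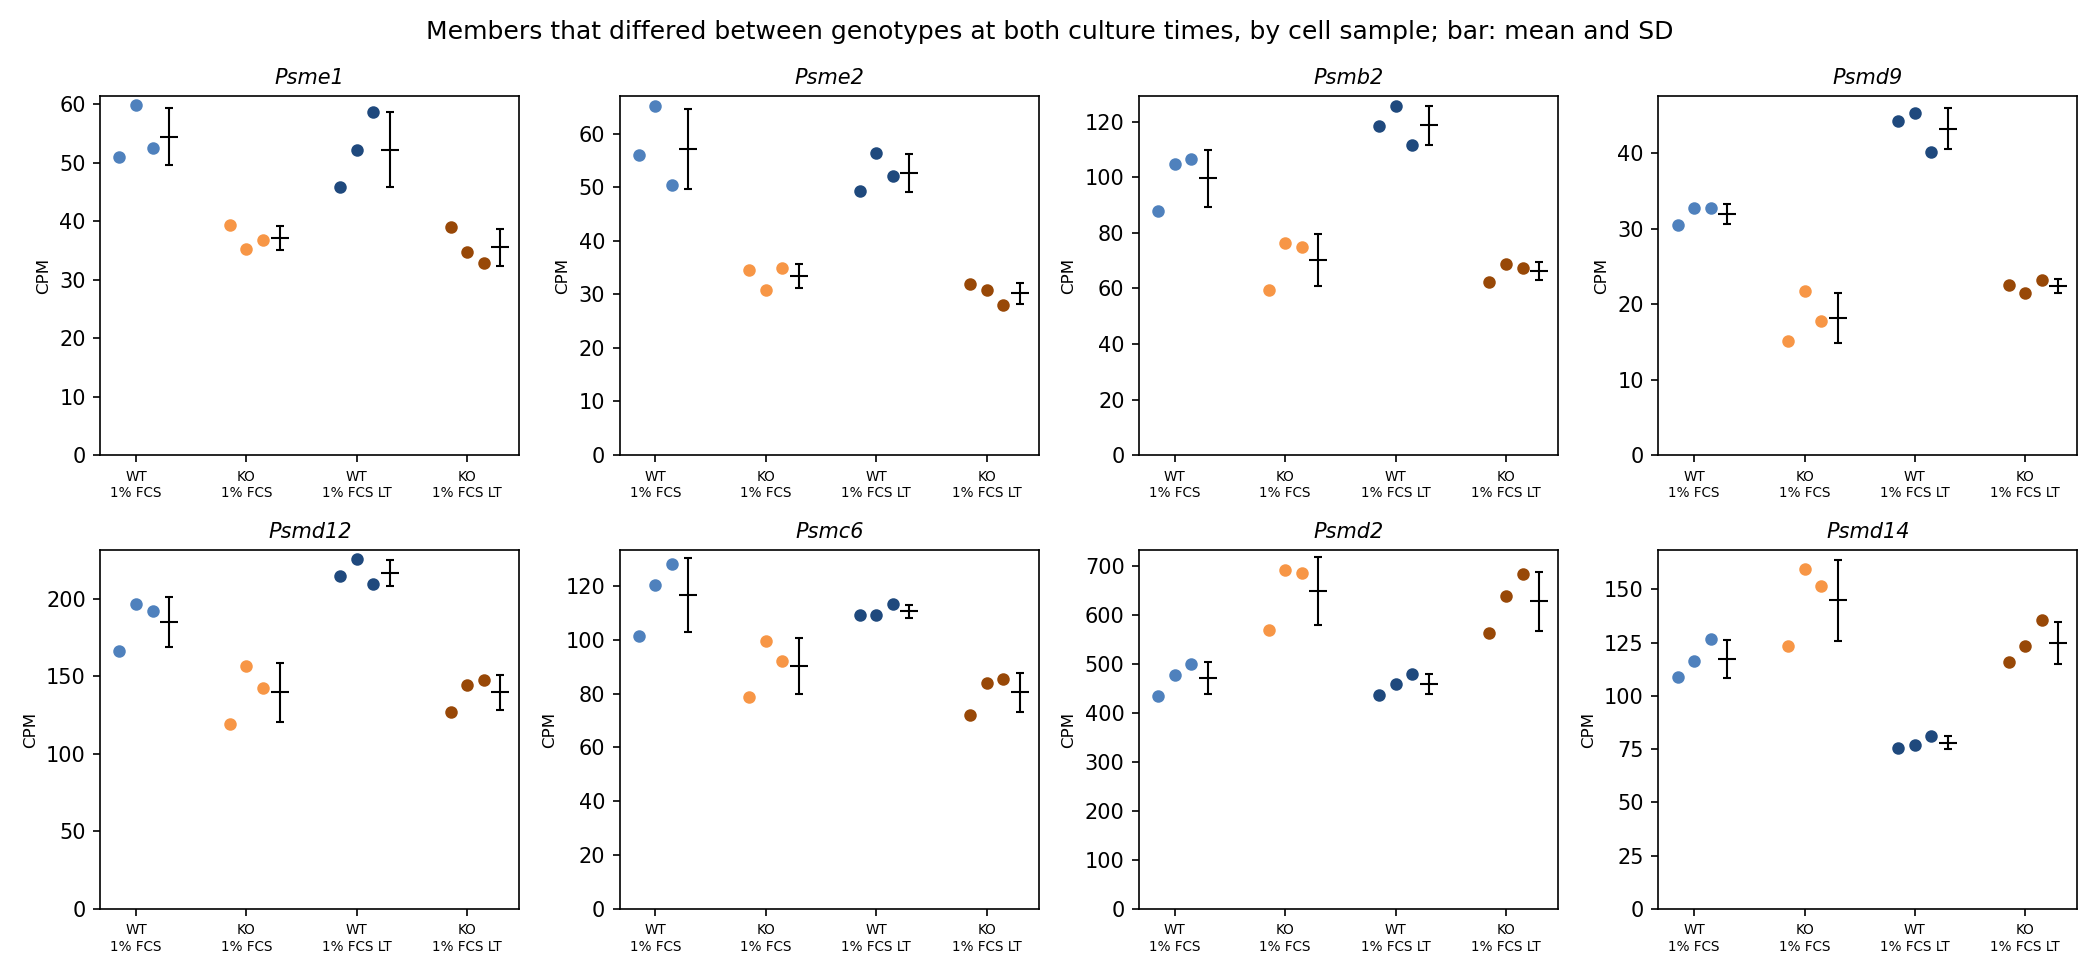
CPM (vertical axis, from 0) in each of the 3 cultures of the 4 cell groups for 8 members that differed between genotypes at both culture times, with the group mean and SD as a bar. Psme1, Psme2, Psmb2, Psmd9, Psmd12 and Psmc6 are lower in each Ctsd-/- culture than in every Ctsd+/+ culture of the same time, and Psmd2 is higher. Psmd14 overlaps at 10 days.

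The members that were higher at both times were all 19S subunits. Psmd2 stood at 435, 478 and 501 CPM in Ctsd+/+ and 569, 692 and 685 CPM in Ctsd-/- cells at 10 days (0.46 ± 0.12, adjusted p = 0.00617), and at 438, 459 and 479 against 563, 638 and 683 CPM at 12 weeks (0.45 ± 0.12, adjusted p = 0.00858). Psmd14, the deubiquitinase of the lid, was higher by 0.30 ± 0.11 at 10 days, where the cultures overlapped, and by 0.68 ± 0.11 at 12 weeks, at 75.4, 77.2 and 81.3 against 116, 124 and 136 CPM (adjusted p = 0.000512). Psmd6 gave 0.36 ± 0.11 and 0.37 ± 0.11. Of the 11 non-ATPase subunits, 6 were higher and 1 lower at 10 days (Psmd12), when 23.5% of all genes were higher and 25.1% lower. At 12 weeks 3 were higher (27.3%) and 1 lower (9.09%), when 20.5% of all genes were higher and 19.1% lower. At 10 days the rest of the higher ones were Psmd8 (0.59 ± 0.18), Psmd1 (0.34 ± 0.12) and the ubiquitin receptor Psmd4 (0.30 ± 0.11). Of the 6 ATPases, Psmc2, Psmc3 and Psmc4 were higher at 12 weeks by 0.40, 0.47 and 0.39. The summed 26S subunits reached 4339 to 5128 and 4522 to 5757 CPM in Ctsd+/+ and Ctsd-/- cells at 10 days, and 4221 to 4475 and 4603 to 5140 CPM at 12 weeks, so the groups overlapped at the first time and not at the second.

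Of the 8 members lower at both times, Psmb2, Psmd9, Psmd12, Psme1, Psme2 and Psme2b passed at both times whichever of the 12 libraries was left out, as did Psmd2 among the higher ones. Psmb5 did not pass at 12 weeks without Ctsd+/+ replicate 1 or any 1 of the Ctsd-/- replicates of that time (adjusted p up to 0.0714). Psmc6 did not pass at 10 days without Ctsd+/+ replicate 2 or 3 or Ctsd-/- replicate 1 or 3 (adjusted p up to 0.0823). Psmd14 lost its call at 10 days without any of 6 libraries (adjusted p up to 0.148), and Psmd6 without any of 3 at 10 days and 2 at 12 weeks (up to 0.065). Of the members called at 1 time, Psmd4 lost its call at 10 days without any of 10 libraries (adjusted p up to 0.189), Psmd1 without any of 4 (0.151), Psmd8 without Ctsd+/+ replicate 1 or Ctsd-/- replicate 2 (0.0633) and Psmd5 without Ctsd-/- replicate 1 (0.0617). At 12 weeks Psma7 lost it without any of 7 libraries (0.0982), Psmf1 of 5 (0.114), Psma3 of 4 (0.0718), and Psmc2 (0.0767) and Psmd10 (0.064) of 2 each. Of the exon bases of Psmd9, 25.5% overlap a gene on the other strand, which the stranded cell libraries separate.

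The inducible subunits behaved apart from the rest, at levels far below those of tumors. Psmb8 stood at 8.996, 8.855 and 6.804 CPM in Ctsd+/+ and 1.85, 0.219 and 0.798 CPM in Ctsd-/- cells at 10 days, a log2 fold change of -3.09 ± 0.70 (adjusted p = 0.00344, edgeR). These levels rest on 300, 290 and 260 counts in Ctsd+/+ and on 76, 8 and 27 counts in Ctsd-/- cells. At 12 weeks the values were 0.730, 0.506 and 0.862 CPM in Ctsd+/+ and 2.56, 3.19 and 0.460 CPM in Ctsd-/- cells, a difference of 1.56 ± 0.69 that did not pass (adjusted p = 0.0962). The 3 Ctsd+/+ cultures at 10 days were the highest of all 12, and replicate 3 of the Ctsd-/- cultures at 12 weeks was lowest but one. Without that culture the difference at 12 weeks was 2.04 and passed (adjusted p = 0.0195, edgeR). It also passed in 4 of the 8 alternative fits: with DESeq2, with no filter on low counts, with counts regardless of strand and within the run that holds both times (adjusted p 0.0087 to 0.274 over the 8).

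Psmb10 followed at a higher level: 11, 21.6 and 14.7 CPM in Ctsd+/+ and 7.74, 4.27 and 5.62 CPM in Ctsd-/- cells at 10 days (-1.42 ± 0.35, adjusted p = 0.00519), and 5.32, 4.88 and 5.75 against 8.67, 8.65 and 3.65 CPM at 12 weeks (0.39 ± 0.34, adjusted p = 0.395). Again the Ctsd+/+ cultures at 10 days exceeded every other cell sample. Psmb9 lay between 0.118 and 1.44 CPM in all 12 samples and gave -1.48 ± 0.76 at 10 days (adjusted p = 0.128) and 1.89 ± 0.79 at 12 weeks (adjusted p = 0.0757). Without Ctsd-/- replicate 1 at 10 days Psmb9 passed at -2.73, and without Ctsd-/- replicate 3 at 12 weeks it passed there at 2.37. Psmb9 also passed at 12 weeks in 4 of the 8 alternative fits (adjusted p 0.00934 to 0.176 over the 8) and at 10 days in 3 (0.0103 to 0.139), with run as a covariate and within the run that holds both times among them at each time. Per kb, the ratio of Psmb8 to Psmb5 was 0.0352 ± 0.0102 in Ctsd+/+ cells at 10 days and 0.00369 to 0.0154 as the mean of the other 3 cell groups (SD, n = 3).

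**Figure D4:**
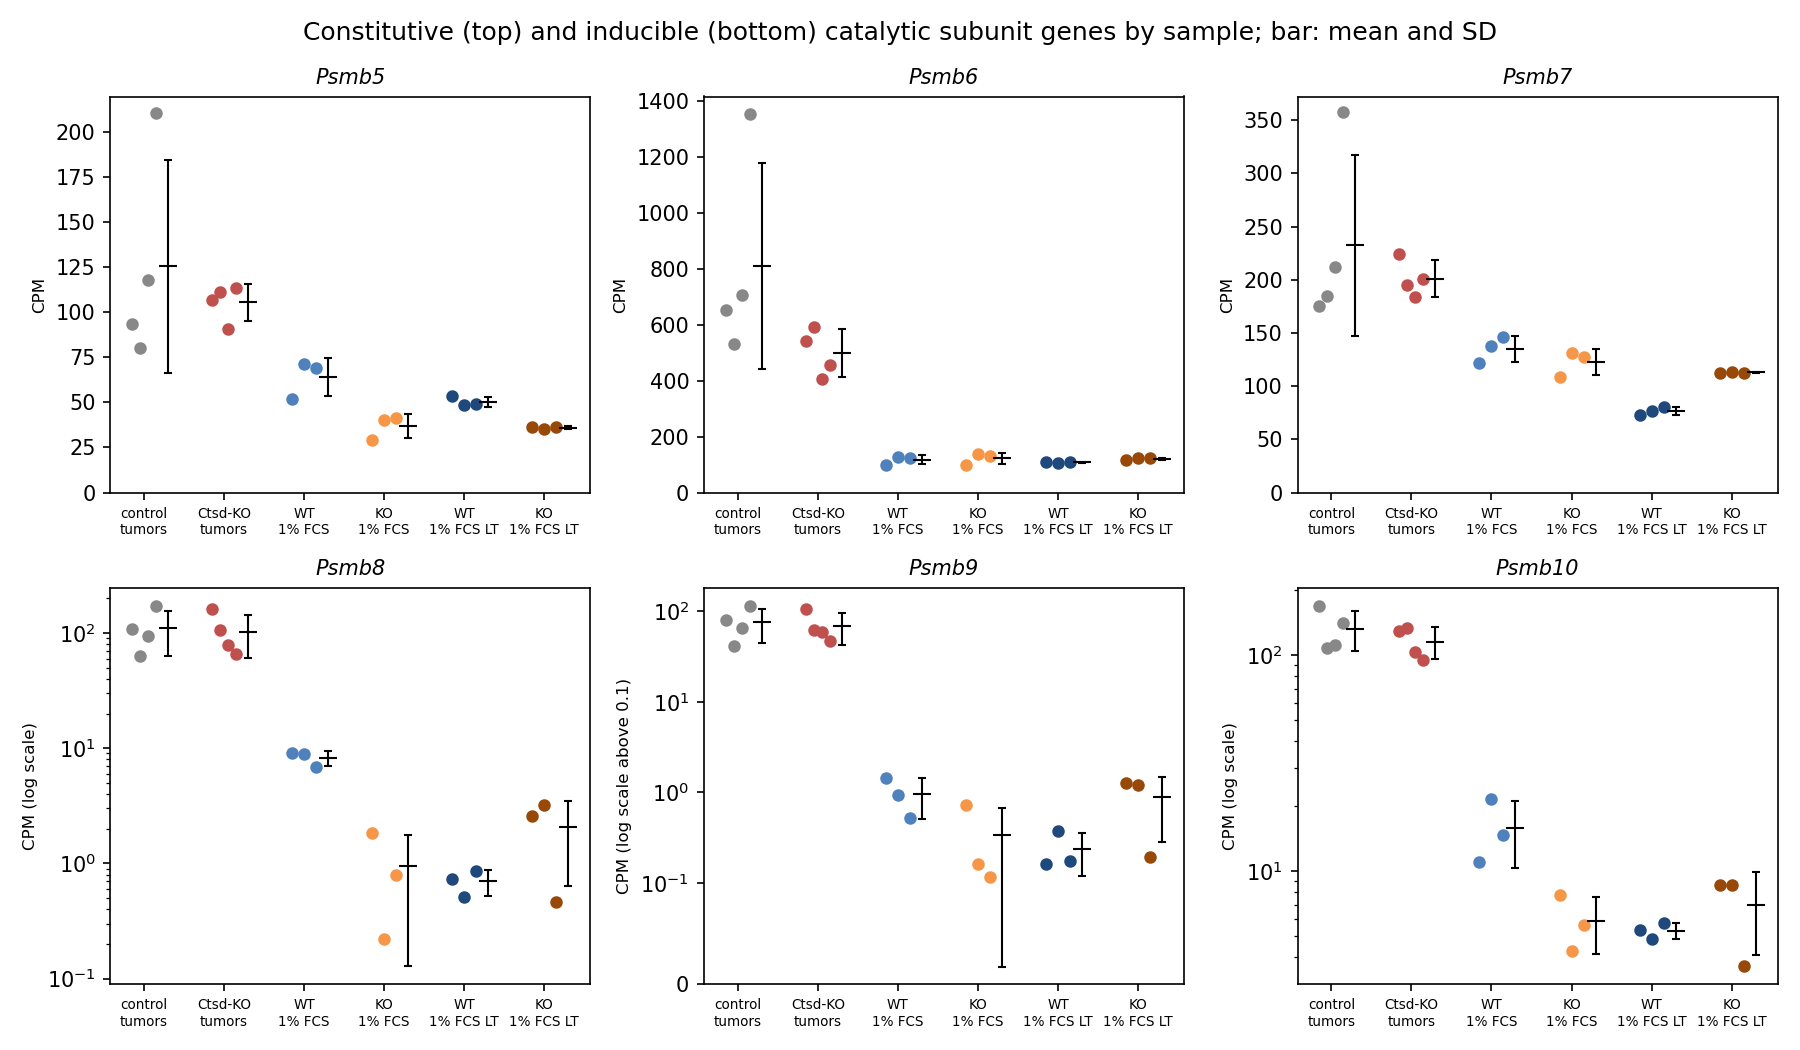
CPM of the constitutive catalytic subunit genes Psmb5, Psmb6 and Psmb7 (top, linear axes from 0) and of their inducible counterparts Psmb8, Psmb9 and Psmb10 (bottom, log axes, that of Psmb9 linear below 0.1 CPM) in every sample of the 6 groups, with mean and SD (WT is Ctsd+/+ and KO is Ctsd-/-). For Psmb8 and Psmb10 the Ctsd+/+ cells in 1% FCS stand above the other 3 cell groups, and all cells lie far below the tumors.

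The other antigen presentation genes did not share one direction in the cells. At 10 days 2 of 10 were higher in Ctsd-/- cells (Nlrc5 at 2.71 and B2m at 0.57) and 3 lower (Tap1 at -1.08, Tap2 at -1.36 and Erap1 at -0.77). Of all genes, 23.5% were higher and 25.1% lower at that time. At 12 weeks Nlrc5 and B2m were higher, at 2.60 and 1.57, and Tapbp was lower, at -0.71, when 20.5% of all genes were higher and 19.1% lower. Leukocyte markers summed to 55.4 to 64.6 CPM in Ctsd+/+ cells at 12 weeks and to 6.75 to 27.3 CPM in the other cell groups, with the pan-leukocyte marker Ptprc at or below 0.634 CPM.

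Culture time alone was next compared within each genotype. In Ctsd-/- cells 0 members differed between 12 weeks and 10 days (edgeR, adjusted p under 0.05), when 2.38% of all genes did (1.57% higher, 0.81% lower), and 5 members passed an unadjusted p of 0.05, when 18% of all genes did. DESeq2 and limma-voom gave 0 as well. Psmb8, Psmb9 and Psmb10 were at 1.10 ± 0.68, 1.36 ± 0.75 and 0.25 ± 0.34, and the median member at -0.07. Psmb5, Psmb6 and Psmb7 gave -0.04 ± 0.15, -0.02 ± 0.13 and -0.12 ± 0.10. Psme1 and Psme2 gave -0.06 ± 0.12 and -0.15 ± 0.11. With sequencing run as a covariate the counts were 1 higher and 5 lower, and within the run that holds both times 2 and 1, with Psmb8 at 2.51 and Psmb9 at 3.1 there (adjusted p = 0.0327 and 0.021, edgeR).

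In Ctsd+/+ cells 18 members were lower and 3 higher at 12 weeks, when 23.4% of all genes were lower and 23% higher (46.4% in all), and the median log2 fold change was -0.25 (all genes 0.01). With run as a covariate 24 were lower and 2 higher, and within the run that holds both times 19 and 1. Psmb8 fell by 3.55 ± 0.72 (adjusted p = 0.00181) and Psmb10 by 1.57 ± 0.35 (adjusted p = 0.00311) on the log2 scale. Psmb9 was at -2.01 ± 0.79 without overlap and did not pass (adjusted p = 0.0547, edgeR). It passed in 4 of the 8 alternative fits (adjusted p 0.0235 to 0.224 over the 8) and without any of 3 libraries. The constitutive members fell less: Psmb7 from 122, 138 and 146 CPM to 72.8, 76.3 and 80.2 CPM (-0.82 ± 0.10, adjusted p = 4.26e-05), Psmb3 by 0.54, Psmc5 by 0.63, Psmc3 by 0.61, Psmd14 by 0.59, Psmc4 by 0.41 and Psmd3 by 0.46. Psme4, the nuclear activator PA200, fell by 0.78 ± 0.13 (adjusted p = 0.000413), at 192, 236 and 224 CPM against 118, 119 and 142 CPM. Psmb5 and Psmb6 gave -0.34 ± 0.15 and -0.13 ± 0.13, Psme1 and Psme2 -0.06 ± 0.12 and -0.12 ± 0.11, and none of them passed. With run as a covariate Psmb5 (-0.478) and Psmb6 (-0.265) passed. Within the run that holds both times Psmb5 passed (-0.457). The 3 higher members were the chaperones Psmd9 (0.43 ± 0.13) and Psmd10 (0.40 ± 0.11) and the ubiquitin receptor Psmd4 (0.31 ± 0.11). Psmc3ip, which is no proteasome gene, was among the 18 at -0.87. These calls share the cultures at 10 days with the low sum of epithelial markers described above. The remaining lower members were Psma4 (-0.37), Psma6 (-0.34), Psma7 (-0.36), Psme2b (-0.44), Psme3 (-0.31), Psmg2 (-0.35) and Psmg4 (-0.65). Psmg2 and Psmg4 lost their call without any of 10 libraries (adjusted p up to 0.168 and 0.156), Psme3 without any of 7 (0.137), Psmd4 of 6 (0.145), Psma6 and Psma7 of 5 (0.115 and 0.119), Psme2b of 4 (0.0865), Psmc3ip of 2 (0.0716) and Psma4 and Psmd10 of 1, replicates 1 and 3 of the Ctsd+/+ cultures at 12 weeks in that order (0.0537 and 0.0503).

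The interaction of genotype and culture time asks whether the genotype difference changed between 10 days and 12 weeks. It passed for 9 members, when 30.3% of all genes passed. In 8 of them the difference moved upward (all genes 16.1%) and in 1 downward (14.1%). With run as a covariate 14 moved upward and 3 downward, and within the run that holds both times 9 and 0. All 3 inducible subunits tested were among the 8: Psmb8 at 4.65 ± 0.98 (adjusted p = 0.00412), Psmb9 at 3.37 ± 1.09 (0.0359) and Psmb10 at 1.82 ± 0.49 (0.0151). The others were Psmb7 (0.70 ± 0.14, adjusted p = 0.00265), Psme4 (0.75 ± 0.18), Psmc3 (0.54 ± 0.15), Psmc5 (0.50 ± 0.15) and Psmc3ip (1.40 ± 0.37). Psmd4 moved downward (-0.47 ± 0.16, adjusted p = 0.0455). The calls of Psmb9, Psmc5 and Psmd4 were lost without any of 8, 5 and 9 of the 12 libraries, with adjusted p up to 0.0843, 0.0656 and 0.116. For Psme1 and Psme2 the interaction was -0.00 ± 0.16 and -0.03 ± 0.16. For Psmb5 and Psmb6 it was 0.30 ± 0.21 and 0.11 ± 0.18, and neither passed. With run as a covariate Psmb5 passed (0.307, adjusted p = 0.0455, edgeR).

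**Figure D5:**
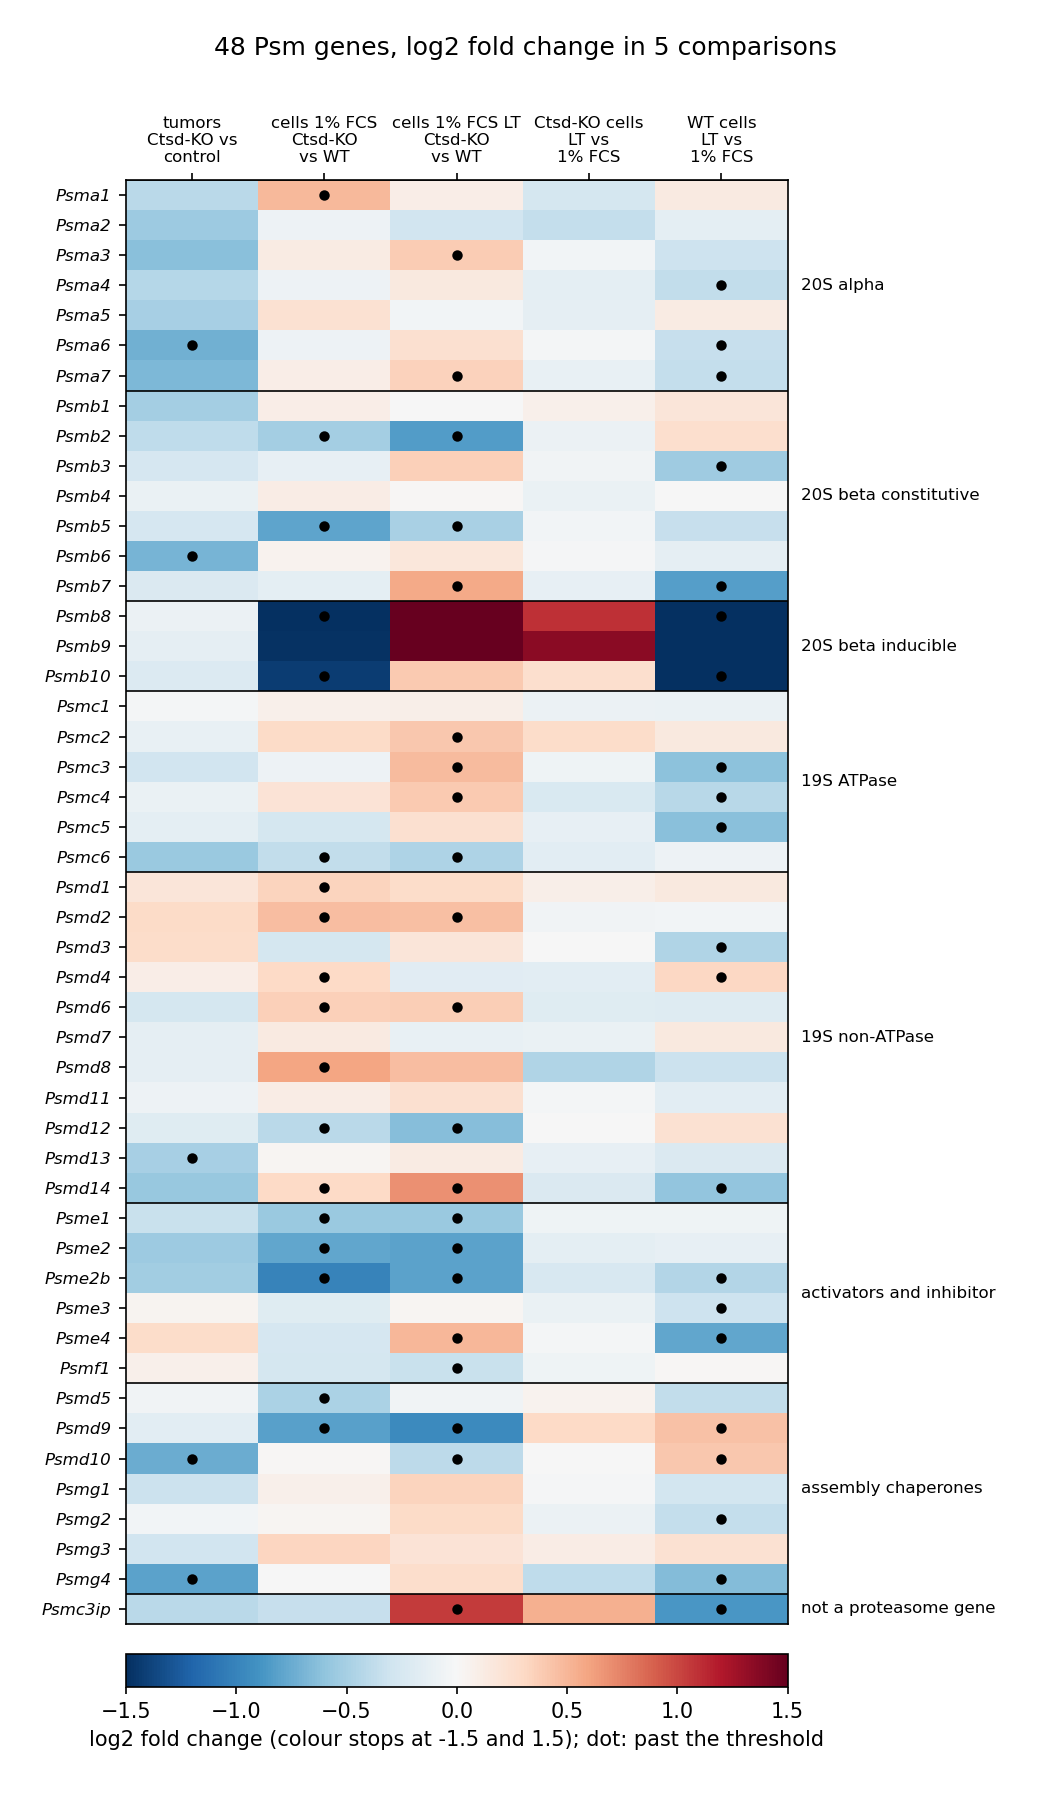
Log2 fold change of each of the 48 members tested (rows, grouped by role) in 5 comparisons (columns), with red higher, blue lower, colours saturated at the ends of the scale and a dot where the threshold was passed (unadjusted p under 0.1 in tumors, adjusted p under 0.05 in cells). The tumor column is mostly pale blue with 5 dots, the Ctsd-/- time column has 0 dots, and the inducible rows change colour between the genotype columns.

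Other genes that serve the proteasome were listed as 14 measured regulators and 16 ubiquitin genes and shuttles. Of the regulators, 5 were higher and 3 lower at 10 days (57.1% called, against 48.5% of all genes). At 12 weeks 2 were higher and 2 lower (28.6% against 39.6%). The medians were 0.18 and -0.08. Of the ubiquitin genes, 4 were higher and 3 lower at 10 days (43.8% called), and 2 higher and 3 lower at 12 weeks (31.2%), both below the shares of all genes. Vcp, the segregase that extracts ubiquitinated proteins for the proteasome, stood at 714, 805 and 677 CPM in Ctsd+/+ and 441, 501 and 508 CPM in Ctsd-/- cells at 10 days (-0.60 ± 0.11, adjusted p = 0.000957), and at 722, 816 and 792 against 410, 440 and 477 CPM at 12 weeks (-0.81 ± 0.11, adjusted p = 0.000162). Its cofactor Nploc4 was lower by 0.65 ± 0.12 and 1.21 ± 0.12 on the log2 scale, and the proteasome-binding protein Ecpas by 0.63 ± 0.08 and 1.07 ± 0.08. The shuttle Rad23b gave -0.47 and -0.74 and Akirin2, which carries proteasomes into the nucleus, -0.41 and -0.50.

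Others in the lists were higher in Ctsd-/- cells, at both times or at 10 days alone. Usp14, a deubiquitinase of the cap, was at 0.35 and 0.60 and Ufd1, the partner of Nploc4, at 0.46 and 0.43. Zfand2a and Zfand5, which bind the 26S proteasome under stress, were at 2.22 ± 0.20 and 1.01 ± 0.17 at 10 days, and at 0.02 ± 0.20 and -0.41 ± 0.17 at 12 weeks, where neither passed (adjusted p = 0.939 and 0.0729, edgeR). For Zfand2a the 3 Ctsd+/+ cultures at 10 days stood at 58.4, 66.4 and 69.2 CPM, while the other 9 cell samples lay between 270 and 646 CPM. Nfe2l1, the gene of NRF1, passed in 0 of the comparisons between genotypes, at 609 to 815 CPM in Ctsd+/+ and 741 to 850 CPM in Ctsd-/- cells at 10 days. In tumors, Adrm1, a ubiquitin receptor of the cap, was the single regulator past the threshold (0.48 ± 0.17, adjusted p = 0.526, edgeR), at 124 to 134 CPM in control and 156 to 191 CPM in Ctsd-/- tumors without overlap. In the fit that included the adipocyte markers Adrm1 was at 0.42 and did not pass. The ubiquitin fusion gene Rps27a was lower there (-1.17 ± 0.41).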

How the data were processed

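Total RNA was sequenced on Illumina instruments in 8 tumors and 12 cell cultures. The authors deposited raw read counts per gene, as written by STAR after alignment to mm10; the annotation release is not given in the sources used here. Counts regardless of strand (column 2) were used for tumors and counts on the opposite strand (column 4) for cells, since 52.8% to 53.7% and 97.1% to 97.3% of stranded counts fell on it. Gene names came from GENCODE M21, which held 45143 of 45706 identifiers. Counts were filtered with filterByExpr, scaled by TMM and fitted with edgeR 4.0.16 (R 4.3.3, quasi-likelihood test, two-sided), tumors alone and all 12 cell samples together, p-values being adjusted by Benjamini-Hochberg across every gene in the fit. The fits were tested on simulated data. CPM use TMM-scaled library sizes. Members, lists, motifs and lists of markers were chosen with earlier results of these data known. Named in every comparison were Psmb5 to Psmb10, Psme1 and Psme2, and per role up to 3 members with the largest change past the threshold and without overlap; further members were named after their values were seen, to account for them. Over 24 replicate pairs, counts differed beyond sampling noise (chi-square per gene 16.5 to 616), so all were kept. Alternatives were DESeq2 1.42.0, limma-voom 3.58.1, other scalings and filters, covariates and left-out libraries. Counting error is small at this depth for most members. The exceptions are Psmb8, at 8 to 300 counts in the cell samples, and Psmb9, at 4 to 53. Paaf1 was not analysed here, and values of some listed genes are not reported here.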

Additional observations from a re-analysis of the deposited data

Results flagged for a closer look

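One sample stood far from its group. Psme2 was at 342.3 CPM in Ctsd-/- tumor 1, while the other 3 Ctsd-/- tumors lay between 186.9 and 203.1 CPM. It was 1 of 30 sets of values examined, and chance gives such a gap in about 1 of 20.

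The genotype difference changed between 10 days and 12 weeks by a tested interaction (edgeR, log2 scale, 12 weeks minus 10 days) in 9 members: Psmb8 by 4.647, Psmb9 by 3.37, Psmb10 by 1.818, Psmc3ip by 1.398, Psme4 by 0.7505, Psmb7 by 0.705, Psmc3 by 0.5425, Psmc5 by 0.5039 and Psmd4 by -0.4681. Among genes of the pathway and antigen presentation lists it changed for B2m by 1.002, Ubqln1 by -0.4753, Nploc4 by -0.5545, Uchl5 by -0.8582, Zfand5 by -1.419 and Zfand2a by -2.199. The calls of B2m, Ubqln1, Nploc4 and Uchl5 were lost without any of 6, 8, 7 and 8 of the 12 libraries, with adjusted p (edgeR) up to 0.0738, 0.0998, 0.0806 and 0.0934. Those of Nploc4 and Ubqln1 were also lost with no filter on low counts (0.0607 and 0.104), and those of Ubqln1 and Uchl5 within the run that holds both culture times (0.0662 and 0.0521). All of these fits use the Ctsd+/+ cultures at 10 days, in which the 7 epithelial markers summed to 915 to 1724 CPM against 4302 to 10120 CPM in the other cell groups, and the part of that difference was not tested.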

How the results depend on the processing

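In tumors, the 5 lower members became 8 with DESeq2, 3 with limma-voom, 8 with no filter on low counts, 1 with adipocyte and 2 with leukocyte markers as a covariate, 1 with a replicate block, 0 without control tumors 3 and 4 and 0 (with 1 higher) with the share of reads over several genes as a covariate. Leaving out 1 tumor gave 0 to 16 lower and 0 to 1 higher members and 29 to 43 below 0. The number below 0 was 36 to 41 in the planned fits with all tumors, and 16 and 14 in the last 2 fits, which were chosen after seeing the data. In those 2 fits, in that order, the log2 fold change turned to 0.29 and 0.371 for Psmb5, 0.164 and 0.278 for Psmb7, 0.277 and 0.437 for Psmb8, 0.183 and 0.324 for Psmb9, 0.0363 and 0.124 for Psme2, 0.147 and 0.255 for Psma6 and 0.158 and 0.209 for Psmg4. With adipocyte markers it turned to 0.0677 for Psmb10, 0.119 for Psmb8 and 0.0138 for Psmb9, and with leukocyte markers to 0.0728 for Psmb8 and 0.0104 for Psmb9. Without 1 tumor it ranged from -0.412 to 0.119 for Psmb5, -0.322 to 0.0753 for Psmb7, -0.392 to 0.221 for Psmb8 and -0.431 to 0.146 for Psmb9. In cells, members higher at 10 days became 4 with no filter, and 2 to 10 (lower 10 to 13) without 1 library. At 12 weeks the higher members became 17 with a replicate block and 18 with sequencing run as a covariate, and 8 to 13 (lower 8 to 11) without 1 library. In Ctsd-/- cells over time, run as a covariate gave 1 higher and 5 lower, the run that holds both times 2 higher and 1 lower, and leaving out 1 library 0 to 0 higher and 0 to 1 lower. In Ctsd+/+ cells over time that run gave 1 higher, and leaving out 1 library 1 to 3 higher and 12 to 20 lower. For the interaction, run as a covariate gave 14 higher and 3 lower, DESeq2 2 lower, no filter 0 lower and that run 0 lower, and leaving out 1 library 6 to 9 higher and 0 to 3 lower. The cause of these moves was not tested. Values near 0 that turned were Psme1 over time in Ctsd-/- cells (0.0354 in that run), the interaction of Psme1 (0.0178 with no filter, 0.0106 with at least 10 counts in every sample, 0.00266 with counts regardless of strand, 0.000592 with run as a covariate, 0.234 in that run) and of Psme2 (0.0545 in that run). Without 1 library these ranged from -0.0873 to 0.0872 for Psme1 and -0.141 to 0.0481 for Psme2 in the interaction, -0.15 to 0.0242 for Psme1 over time in Ctsd+/+ cells, -0.184 to 0.0471 for Psmb5 and -0.148 to 0.0774 for Psmb6 over time in Ctsd-/- cells, -0.0536 to 0.187 for Psmb6 at 10 days and -0.0174 to 0.223 for Psmb6 in the interaction. The replicate numbers were not taken to pair the samples, since a correlation over 0.1 was not reached by every pair: same-numbered samples of the 2 genotypes had deviations correlated at -0.303 to -0.00755 in tumors, 0.1 to 0.362 at 10 days (mean 0.254, against -0.126 for pairs with different numbers) and 0.00181 to 0.119 at 12 weeks.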
